A study of Bos taurus with 8 samples.

Results

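The seed family of miR-25, miR-92, miR-363 and miR-32 groups miRNAs that share a seed, the stretch of bases 2 to 8 with which a miRNA pairs to its targets. Its members were taken by name from the table of raw reads, as bta-miR-25, bta-miR-92a, bta-miR-92b, bta-miR-32 and bta-miR-363, and all 5 were found among the 704 names. The samples were blood plasma and blood cells of 4 healthy, cycling, non-pregnant Holstein-Friesian cross heifers (cows 44 to 47), drawn from animals 20 to 25 months old. No treatment was given, and small RNA was sequenced from the plasma (1 library) and the blood cells (1 library) of each animal. The plasma had been filtered (0.7 mL used), and the cells were a pellet of red blood cells with buffy coat (250 μL of the suspension used), so they are a mix of cell types. The question put to these libraries was which miRNAs of plasma are those of blood cells and which are not.

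miRNAs are short RNAs that guide silencing complexes to messenger RNAs, and miRNAs with a common seed are expected to share many targets. In human and mouse this family is known for repressing the pro-apoptotic gene BCL2L11 (BIM). Several of its members lie in polycistronic clusters, in which a single transcript is cut into several miRNAs. miR-92a is made from the oncogenic miR-17-92 cluster and from its paralogue, the miR-106a-363 cluster, which also gives miR-363. The miR-106b-25 cluster, in an intron of the replication gene MCM7, gives miR-25 with miR-93 and miR-106b. miR-92b and miR-32 lie outside these clusters.

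The deposited locations, on bosTau4, followed this layout. miR-25 was listed at chr25:38456026-38456047 on the plus strand, 241 bases from miR-93 and 443 bases from miR-106b. miR-92a was listed at chr12:64665850-64665871 on the plus strand, between 290 (miR-20a) and 735 bases (miR-17-5p) from the other listed miRNAs of the miR-17-92 cluster. miR-363 was listed on the minus strand of an unplaced scaffold, from base 180836 to base 180856, with miR-19b, miR-20b, miR-18b and miR-106a 308 to 869 bases away. miR-92b was at chr3:16805653-16805674 and miR-32 at chr8:103684327-103684349, both on the minus strand, with none of these clusters beside them. In RefSeq's bovine genes (assembly ARS-UCD2.0, used only for names and neighbours) the precursor of miR-25 lies within MCM7, that of miR-32 within TMEM245, and that of miR-92b within no other gene. RefSeq also has 2 precursors of miR-92a, of which the deposited table lists the location of 1, so its reads may come from both clusters.

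Plasma libraries held 1453384 to 4296460 miRNA reads and blood cell libraries 11169204 to 14471979. Levels are given in RPMM, the authors' normalised reads per library, and 3 reads correspond to at most 2.07 RPMM in plasma and 0.268 RPMM in blood cells. Of the names, 209 reached 25 RPMM in 3 or more libraries of a fraction and entered edgeR's quasi-likelihood test on the read counts, with the cow as a block, and a miRNA is called at a Benjamini-Hochberg adjusted p under 0.05. The comparison depends on how libraries are scaled to each other: over the tested miRNAs, the log2 fold change (plasma over blood cells) had a median of 0.08 with TMM scaling and 1.76 with library totals alone. "Higher" and "lower" follow TMM unless RPMM or library totals are named. The blood cell libraries carried the red blood cell miRNAs miR-451, miR-486 and miR-144 at a summed 488193 to 561169 RPMM, against 89165 to 180387 in plasma. 5 miRNAs of tissues outside blood (miR-122, miR-200a, miR-205, miR-429 and miR-215) summed to 16029 to 56039 RPMM in plasma, and in blood cells, which had no reads of miR-429, to 5.58 to 41.5. Most of these sums was miR-215, at 13933 to 53339 RPMM in plasma and 5.16 to 41.1 in blood cells. All 5 passed the filter through plasma alone. In the blood cell fraction, fewer cells of a type and less RNA per cell cannot be told apart.

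The family did not move as 1 group. miR-25 and miR-92a were called higher in blood cells, miR-92b was called higher in plasma, and miR-32 and miR-363 were not called with TMM. All 5 members were tested. Of these, 2 were called higher in blood cells, against 39.7% of all tested miRNAs, and 1 higher in plasma, against 45.5%. In either direction 3 of 5 were called, where the background was 85.2%. With library totals, 3 members were called higher in plasma (67% of all tested), 2 higher in blood cells (24.9%) and all 5 in either direction (91.9%). In RPMM the 4 plasma and the 4 blood cell libraries did not overlap for any member, as for 87.1% of tested miRNAs. With calls this common and 5 members, nothing is read from these counts, and the results turn on how the members differ from each other.

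**Figure D1:**
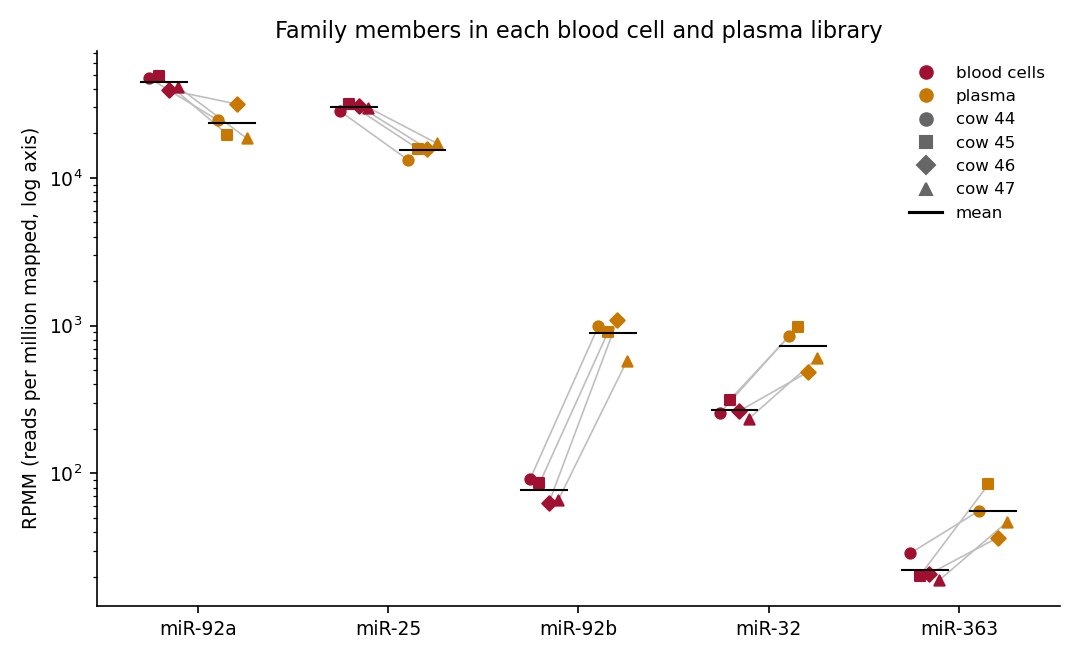
RPMM of each family member (log axis) in the 4 blood cell (red) and 4 plasma (orange) libraries, with symbols for the cows, grey lines joining libraries of the same cow and black bars for the mean of 4. In every cow miR-92a and miR-25 have fewer RPMM in plasma, and miR-92b, miR-32 and miR-363 have more.

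miR-92a, the most abundant member and a miRNA well known from red blood cell precursors and endothelium, was among the leading miRNAs of both fractions. In blood cells it had 47291, 48983, 39449 and 41333 RPMM in cows 44, 45, 46 and 47, and ranked 4 of all names in every library. In plasma it had 24517, 19640, 31612 and 18589 RPMM in the same cows and ranked between 9 and 15. Every plasma library was below every blood cell library, but the plasma of cow 46 came closest, at a log2 RPMM ratio of -0.32 within the cow against -0.95 to -1.32 in the others. The blood cell mean was 44264 ± 4590 RPMM and the plasma mean 23589 ± 5939 (SD, n = 4). Its log2 fold change was -2.61 (standard error 0.18; edgeR's quasi-likelihood test, Benjamini-Hochberg adjusted p = 2.01e-05), with lower RPMM in the plasma of 4 of 4 cows, and -0.94 with library totals (adjusted p = 0.00385 from edgeR's test), so direction and call held under both scalings.

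miR-25, the MCM7 intronic member, followed the same course with the smallest spread of the family. Blood cells had 28397, 31868, 30713 and 29949 RPMM in cows 44 to 47, and plasma had 13215, 15782, 15783 and 17166. The means were 30232 ± 1455 and 15487 ± 1649 RPMM (SD, n = 4), and no plasma library came near a blood cell library. The log2 fold change was -2.64 (standard error 0.16; edgeR's quasi-likelihood test, adjusted p = 1.17e-05; 4 of 4 cows lower) with TMM and -0.97 with library totals (adjusted p = 0.000335 from edgeR's test). On the log2(RPMM + 1) scale its SD over cows was 0.16 in plasma and 0.07 in blood cells, against medians of 0.36 and 0.24 over the tested miRNAs. Only 7.18% and 3.35% of tested miRNAs had a smaller SD in plasma and in blood cells, respectively.

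miR-92b, which in name is the closest relative of miR-92a but is made from a locus of its own, went the other way. It had 91.2, 85.5, 63.5 and 66.6 RPMM in the blood cells of cows 44 to 47, and 994, 904, 1088 and 579 RPMM in their plasma. The lowest plasma library, that of cow 47, was thus still several times above the highest blood cell library. The plasma mean of 891 ± 221 RPMM was 11.6 times the blood cell mean of 76.7 ± 13.7 (SD, n = 4). Its log2 fold change was 1.84 (standard error 0.17; edgeR's quasi-likelihood test, adjusted p = 7.86e-05; 4 of 4 cows higher), or 3.52 with library totals (adjusted p = 2.18e-05 from edgeR's test). It ranked between 68 and 81 in plasma and between 104 and 110 in blood cells. Among the tested miRNAs 33.0% had a higher log2 fold change, so that many miRNAs were more enriched in plasma than miR-92b was.

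miR-32, the TMEM245 intronic member, had more RPMM in plasma, but its direction depended on the scaling. Blood cells had 257, 314, 264 and 234 RPMM in cows 44 to 47 and plasma had 849, 984, 485 and 601. All plasma libraries were above all blood cell libraries, with cow 46 the lowest in plasma, and the means were 267 ± 33.8 and 729.6 ± 227 RPMM (SD, n = 4). With TMM the log2 fold change was -0.27 (95% interval -0.80 to 0.26, adjusted p = 0.278, edgeR's quasi-likelihood test), and with library totals it was 1.40 (0.88 to 1.92, adjusted p = 0.000858 from edgeR's test).

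miR-363, the least abundant member, shares a cluster with a precursor of miR-92a but sat beside miR-32 in its values. It had 28.9, 20.4, 20.9 and 18.9 RPMM in the blood cells of cows 44 to 47, from 219 to 323 reads, and 55.8, 84.2, 36.8 and 47.1 RPMM in plasma, from 67 to 268 reads. Plasma was again above blood cells in every cow, with cow 45 the highest and cow 46 the lowest plasma library. At these depths the 95% Wilson interval of a library reached up to 24.1% to either side of its value in plasma, against at most 6.60% for miR-92b, miR-32 and the abundant members there, and such intervals cover counting error only. The log2 fold change was -0.37 with TMM (95% interval -1.05 to 0.30, adjusted p = 0.240, edgeR's quasi-likelihood test) and 1.30 with library totals (0.67 to 1.93, adjusted p = 0.00302 from edgeR's test). It passed the filter through plasma alone, since only 1 blood cell library reached 25 RPMM.

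**Figure D2:**
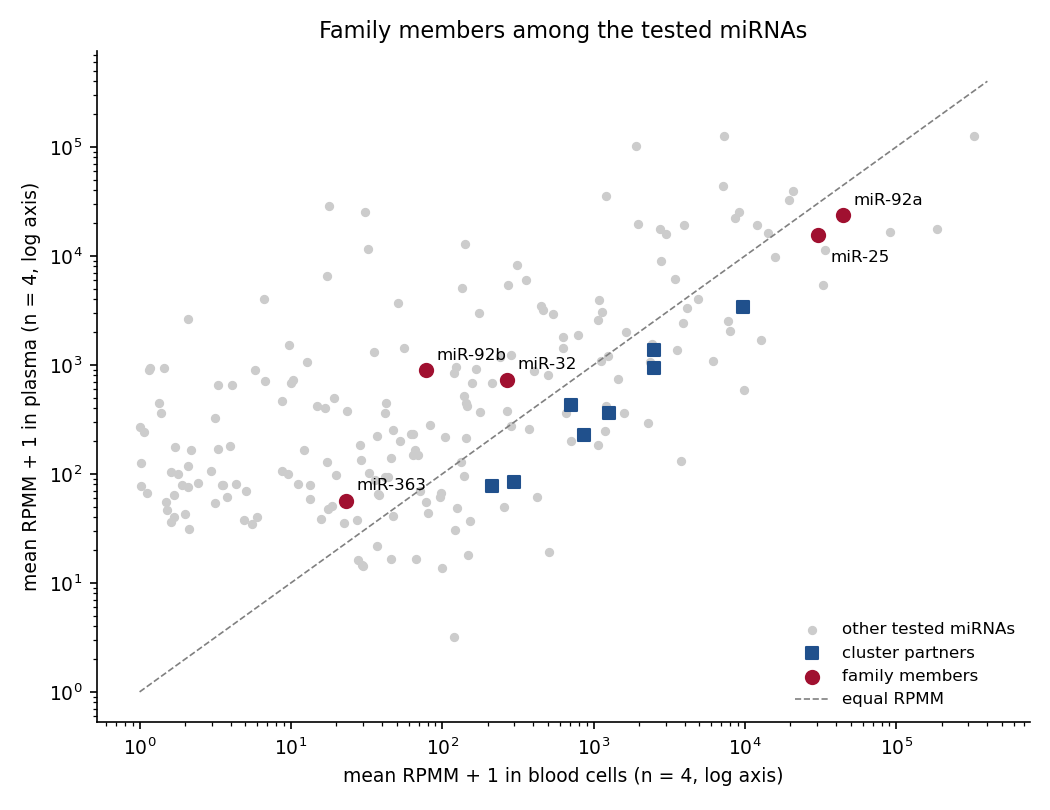
Mean RPMM + 1 in plasma against blood cells (both log axes, n = 4 libraries each) of the 209 tested miRNAs, with the 5 family members in red, their tested cluster partners in blue and the dashed line at equal RPMM. miR-92a and miR-25 lie below the line with the partners, and miR-92b, miR-32 and miR-363 lie above it.

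The levels of the members kept the same order in every blood cell library: miR-92a, miR-25, miR-32, miR-92b and miR-363. In plasma miR-92a stayed above miR-25 in all 4 cows, although in cow 47 by a factor of only 1.08, and miR-363 stayed the lowest. miR-92b and miR-32 changed places between cows. miR-92b was ahead in cows 44 and 46 and miR-32 in cows 45 and 47, in cow 47 within overlapping Wilson intervals (557 to 602 RPMM of miR-92b and 578 to 625 of miR-32). Levels were compared per mature miRNA, whose listed locations span 21 to 23 bases, although adapter ligation can favour some miRNA sequences over others.

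The family as a whole took a smaller part of the plasma reads than of the blood cell reads. Its share of the miRNA reads was 4.08% ± 0.560 (plasma) and 7.49% ± 0.491 (blood cells; SD, n = 4), with 3.71% to 4.90% in single plasma libraries and 7.06% to 8.13% in blood cell libraries. The 95% Wilson interval of a library's share reached at most 0.0317 percentage points to either side. Within a cow the blood cell share was 1.44 to 2.18 times the plasma share (exact two-sided sign-flip test over the 4 cows, giving the smallest p that 4 pairs allow, 1 in 8). Cow 46 gave the ratio of 1.44 and cow 45 that of 2.18.

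This family share was almost wholly miR-92a and miR-25, and the mix of the remaining members differed between the fractions. Of the family's reads, miR-92a and miR-25 together held 99.5% ± 0.0300 (blood cells) and 95.8% ± 1.02 (plasma; SD, n = 4). Their own shares were similar, with miR-92a at 59.0% ± 2.75 in blood cells and 57.3% ± 6.95 in plasma, and miR-25 at 40.5% ± 2.76 and 38.5% ± 6.89 (all SD, n = 4). miR-92b made up 0.102% ± 0.0136 of the family in blood cells and 2.18% ± 0.425 in plasma. In the same order, miR-32 made up 0.357% ± 0.0287 and 1.85% ± 0.704, and miR-363 0.0298% ± 0.00581 and 0.142% ± 0.0622 (all SD, n = 4). The other 3 members together made up 0.488% of the family in blood cells and 4.17% in plasma.

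**Figure D3:**
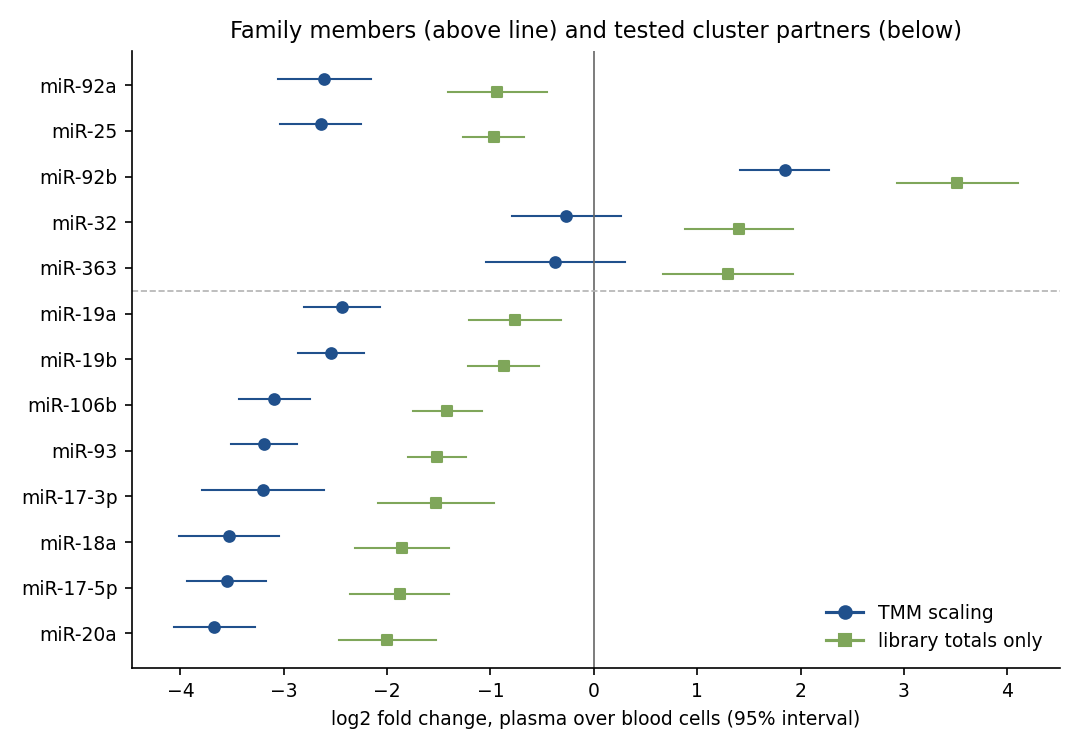
Log2 fold changes of plasma over blood cells with 95% intervals from edgeR, for the 5 family members (above the dashed line) and 8 tested cluster partners (below), with TMM scaling (blue) and library totals (green). miR-32 and miR-363 change sign between the scalings, and the partners stay below 0 under both.

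Read ratios between members of the same library need no scaling between libraries, and they split the family into 3 sets. The 10 pairs of members were compared, each by an exact two-sided sign-flip test over 4 cows, which cannot give a p below 1 in 8 and so cannot pass 0.05. In 8 pairs the ratio moved the same way in all 4 cows (the smallest exact p allowed, 0.156 after Benjamini-Hochberg adjustment over the 10 pairs), and plasma and blood cell libraries did not overlap. These were the pairs that join members of different sets, with miR-92a and miR-25 in one, miR-32 and miR-363 in another, and miR-92b alone. The 10 ratios come from 5 members and are not independent. How often pairs of other tested miRNAs differ in this way was not counted, so the sets only describe these members.

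miR-92a outnumbered miR-92b by 519 to 622 reads to 1 in blood cells and by 21.7 to 32.1 to 1 in plasma. The log2 ratio in plasma minus that in blood cells was -4.39, -4.72, -4.42 and -4.27 in cows 44 to 47, on average 21.9-fold lower in plasma, and its SD over cows was 0.19, the smallest of the 10 pairs. Mapping allowed 1 mismatch, and whether some reads of the abundant miR-92a were counted as miR-92b was not tested. miR-25 over miR-92b had a geometric mean of 399 in blood cells and 17.8 in plasma, 22.4-fold apart. The ratios of miR-92a to miR-32 and of miR-25 to miR-32 were 5.05 and 5.17 times as high in blood cells, and those to miR-363 were 4.65 and 4.77 times as high. miR-92b over miR-32 was 4.34 times as high in plasma, since there were 0.240 to 0.354 reads of miR-92b per read of miR-32 in blood cells and 0.919 to 2.24 in plasma. For miR-92b over miR-363 the ratio was 4.70 times as high in plasma.

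Within the sets the ratios did not move one way. The ratio of miR-92a to miR-25 was 1.28 to 1.67 in blood cells and 1.08 to 2.003 in plasma. Its log2 difference between the fractions was 0.16, -0.30, 0.64 and -0.35 in cows 44 to 47, with a mean of 0.04 ± 0.46 (SD, n = 4, exact sign-flip test p = 1, higher in plasma in 2 of 4 cows). The ratio of miR-32 to miR-363 was 8.90 to 15.4 in blood cells and 11.7 to 15.2 in plasma, with log2 differences of 0.77, -0.40, 0.06 and 0.04 and a mean of 0.12 ± 0.49 (SD, n = 4, exact sign-flip test p = 0.625). With 4 cows, these values do not show that the ratios are equal.

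**Figure D4:**
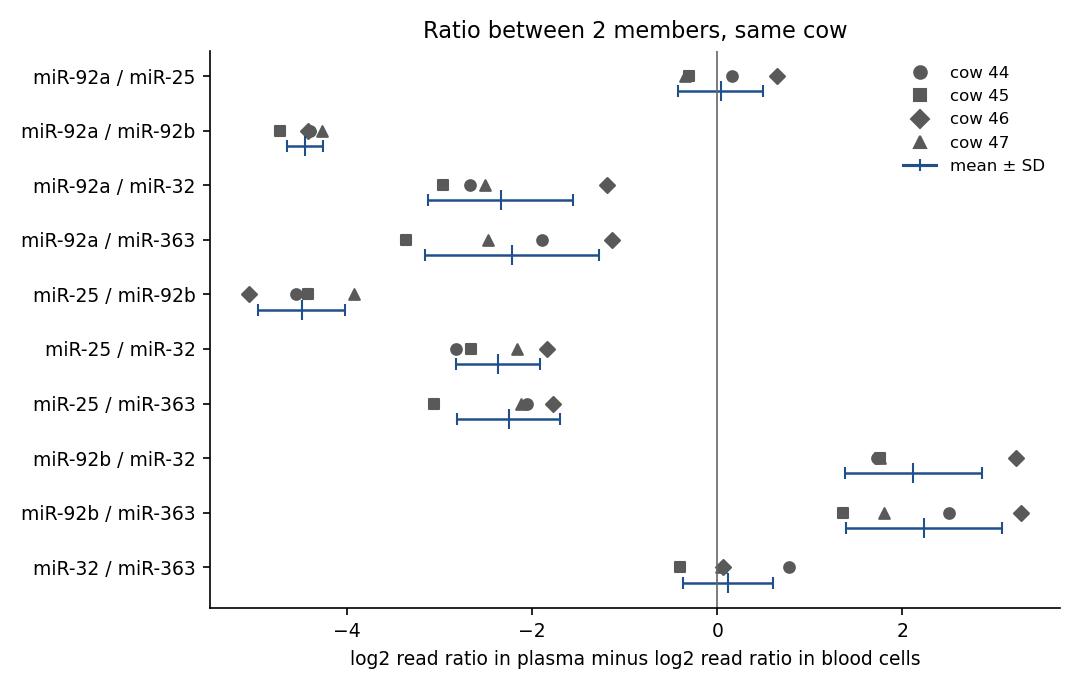
For each of the 10 pairs of members, the log2 read ratio in plasma minus that in blood cells of the same cow (grey symbols), with the mean and SD of 4 cows in blue. Ratios of miR-92a to miR-25 and of miR-32 to miR-363 scatter around 0, and the other 8 lie on 1 side of it in all 4 cows.

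Within plasma the members also differed in which cows were high. miR-92a and miR-92b both had their highest plasma level in cow 46 and their lowest in cow 47, with cow 44 ahead of cow 45. miR-32 and miR-363 had their lowest plasma level in cow 46 and their highest in cow 45. miR-25 was lowest in cow 44 and highest in cow 47. miR-451, the red blood cell miRNA, had 13373, 18340, 21769 and 17297 RPMM in the plasma of cows 44 to 47, so it was also highest in cow 46 but lowest in cow 44. The part of red blood cell RNA in these plasma levels was not tested.

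The abundant members were set against the red blood cell miRNAs of the same library, and the outcome differed between these. The log2 fold change was -5.07 for miR-451, -3.08 for miR-486 and -5.76 for miR-144. All 3 were called higher in blood cells by edgeR's test, as were 39.7% of all tested miRNAs. Per read of miR-451 in the same library, miR-92a was 5.52 times and miR-25 5.39 times as frequent in plasma as in blood cells, in 4 of 4 cows. Per read of miR-144 these factors were 8.90 and 8.69, in 4 of 4 cows each. Per read of miR-486 they were only 1.39 for miR-92a (3 of 4 cows, with cow 45 at a log2 difference of -0.07) and 1.35 for miR-25 (4 of 4 cows, from 0.03 to 0.95), and these ratios overlapped between plasma and blood cells. Against miR-451, the factor was 27.9 for miR-32 and 25.7 for miR-363, and for miR-92b it was 121. Of 7 leukocyte miRNAs, 4 were called higher in blood cells (39.7% of all tested miRNAs) and 0 higher in plasma (45.5%) with TMM. Their summed level was 25928 to 31932 RPMM in blood cells and 33392 to 70757 in plasma. Library totals turned the calls round, with 6 of the 7 called toward plasma (67% of all tested), 1 (miR-142-3p) not called and 0 toward blood cells (24.9%). The calls of this list, like those of miR-32 and miR-363, thus depended on the scaling, and with a list this short nothing more is read from them. The platelet and endothelial miRNAs miR-126-3p and miR-126-5p summed to 5129 to 9762 RPMM in plasma and to 15.5 to 26.7 in blood cells. Both were called higher in plasma, as were 45.5% of all tested miRNAs. Both had passed the filter through plasma alone, so nothing is read from these calls. Which cells the members come from was not tested.

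The miRNAs that share a transcript with family members were lower in plasma without exception among those tested. Of 11 partners in the 3 clusters, 8 passed the filter, all 8 through blood cells and plasma alike, and all 8 were called, in the direction of blood cells, under TMM and library totals alike (against 39.7% and 24.9% of all tested miRNAs). None was therefore called higher in plasma by edgeR, where 45.5% (TMM) and 67% (library totals) of all tested miRNAs were. This 0 of 8 follows from the calls toward blood cells and is no further support. DESeq2, on the same counts, also called all 8 higher in blood cells. With TMM the log2 fold changes of the 8 ran from -3.67 (miR-20a, a seed relative of miR-17-5p) to -2.44 (miR-19a), with a median of -3.20 against 0.08 over all tested miRNAs. Partners cut from the same transcript are not independent, and miR-17-5p and miR-17-3p are arms of the same precursor. The partners miR-106a, miR-18b and miR-20b were not among the tested.

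In the miR-106b-25 cluster, blood cells had 9760 ± 1114 RPMM of miR-93, plasma 3411 ± 422, and for miR-106b these were 2510 ± 523 and 943 ± 217 (SD, n = 4). Their log2 fold changes of -3.19 and -3.09 were below the -2.64 of miR-25. Per read of miR-93, there were 2.89 to 3.65 reads of miR-25 in blood cells and 3.78 to 6.15 in plasma, with no overlap. The log2 ratio of miR-25 to miR-93 was higher in plasma by 0.36, 0.51, 0.56 and 0.75 in cows 44 to 47 (exact sign-flip test, p = 0.161 after adjustment over 9 cluster pairs). Against miR-106b the difference had the same sign in all 4 cows, at 0.45 ± 0.17 (SD, n = 4), but the ratios overlapped between the fractions.

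In the miR-17-92 cluster, miR-92a lay between its partners. miR-17-5p, which with miR-20a promotes cell cycle entry in human and mouse cells, was at 1262 ± 261 RPMM (blood cells) and 361 ± 133 (plasma), and miR-19b, another member of that cluster, had 2502 ± 322 and 1380 ± 285 (SD, n = 4). The ratio of miR-92a to miR-17-5p was 1.93 times and that to miR-20a 2.09 times as high in plasma, each in 4 of 4 cows (exact sign-flip test, p = 0.161 adjusted over 9 cluster pairs). That to miR-18a was 1.90 times as high in 4 of 4 cows, with overlapping ratios. The ratio to miR-19a did not move one way, at a mean log2 difference of -0.17 ± 0.47 (SD, n = 4, exact sign-flip test p = 0.5).

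The miR-106a-363 cluster was scarce in both fractions. miR-363 was its most abundant member apart from miR-92a and miR-19b, whose reads may also come from the miR-17-92 cluster. miR-106a had 3.01 to 6.71 RPMM in blood cells and 2.32 to 10.3 in plasma, miR-20b 4.13 to 7.16 and 1.62 to 5.03, and miR-18b 0.948 to 2.24 and 0.688 to 2.51, so none reached the filter. When all 704 names were tested, 153 were called higher in blood cells and 178 higher in plasma. In that fit miR-106a, miR-20b and miR-18b had log2 fold changes of -1.11, -2.20 and -1.53 and were called higher in blood cells (adjusted p = 0.00554, 5.07e-05 and 0.0261 from edgeR's test). miR-363 stood at -0.30 (adjusted p = 0.457 from the same test). With as few as 1 to 8 plasma reads of miR-18b and 6 to 16 of miR-20b, these values carry a wide counting error. They also depend on the scaling, since in RPMM miR-106a was higher in plasma in 3 of 4 cows, miR-18b in 2 of 4 and miR-20b in 1 of 4, and the fractions overlapped for each. The ratio of miR-363 to miR-20b was 3.44 to 4.56 in blood cells and 11.2 to 29.0 in plasma, 3.89 times as high on average and in 4 of 4 cows (exact sign-flip test, p = 0.161 adjusted over 9 cluster pairs). That to miR-18b was 2.93 times as high, also in 4 of 4 cows with the same adjusted p from the exact test. The ratio of miR-363 to miR-106a overlapped, at 3.75 to 6.26 in blood cells and 3.72 to 20.3 in plasma, and was higher in plasma in 3 of 4 cows, with cow 46 at a log2 difference of -0.01 (exact sign-flip test, p = 0.25, 0.281 adjusted).

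Profiles of log2(RPMM + 1) over the 8 libraries, each centred on its own mean, describe the same values as the read ratios. They are therefore no second test of the sets. The root mean square difference between miR-92a and miR-25 was 0.28 and that between miR-32 and miR-363 was 0.23, against 1.12 to 2.26 for the other 8 pairs. Of all 208 other tested miRNAs, miR-484, miR-26b and miR-19b were the nearest to miR-92a, at 0.24, 0.24 and 0.27. miR-6524, miR-374a and miR-92a were the nearest to miR-25, at 0.27, 0.27 and 0.28. For miR-92b they were miR-139, miR-330 and miR-744, at 0.24, 0.27 and 0.29. The nearest to miR-32 were miR-21-5p, miR-29b and miR-363, at 0.21, 0.23 and 0.23, and for miR-363 they were miR-29b, miR-32 and miR-21-5p, at 0.15, 0.23 and 0.27. The median difference to all others was between 1.31 and 1.57. These profiles rest on 4 libraries of each fraction, and a likeness mainly reflects a like difference between the fractions.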

How the data were processed

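The authors made small RNA libraries (TruSeq, 36-base reads) from 4 paired plasma and blood cell samples and mapped reads with sRNAbench and, per the submitters' processing notes, Bowtie 0.12.9 to bosTau4 and miRBase, allowing 1 mismatch to a known miRNA. They deposited raw read counts per miRNA name (565 bovine, 139 human homologues). They also deposited normalised reads (RPMM), a signal relative to mapped reads with separate denominators for bovine and human names. Counts were tested with edgeR 4.0.16 (limma 3.58.1, R 4.3.3): quasi-likelihood test, TMM, cow as a block, Benjamini-Hochberg adjustment over all 209 tested names. The study ran edgeR in paired mode, on RPMM, after a filter with the same minimum, which left a slightly different number of names. The paper does not name TMM. Its fold changes of miR-451 and miR-144 lay near the ratios of mean RPMM here (10.6 and 16.9, blood cells over plasma). The published values were far below the fold changes with TMM, which are therefore not on the paper's scale. RPMM of human names were put on the bovine scale. Standard errors were derived from the fold change and its F statistic.

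Pairs come from the animals, and the deviations of same-cow libraries correlated at 0.0508 to 0.234, against -0.174 to 0.106 for different cows. Shares and ratios between members were compared by exact sign-flip tests. The fit was tested on simulated data with as many raised as lowered miRNAs and no cow effect. Such data cannot decide between TMM and library totals.

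The members, cluster and marker lists were chosen with earlier results of these data known. The text names the members, their cluster partners, the markers and the 3 nearest profiles of each member. Names with the same seed could not be sought by sequence, and mature sequences were not used here. Alternatives were library totals, RLE factors, no block, DESeq2 1.42.0, edgeR's likelihood ratio test, limma on log2(RPMM + 1), other filters, only bovine names, and each cow left out. For ratios, unpaired tests and 1 RPMM added were tried. p-values adjusted over the pairs cover 10 member and 9 cluster pairs.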

Additional observations from a re-analysis of the deposited data

Results flagged for a closer look

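Of 54 sets of 4 values examined, 2 held a value far from the other 3, where chance alone gives about 1 in 20. The number flagged is thus no more than chance would give, and the 2 are only described. The plasma of cow 47 had 41.6 RPMM of miR-18a, a miR-17-92 partner of miR-92a, against 96.1 to 98.9 in the other plasma libraries. In cow 46 the log2 ratio of miR-92b to miR-32 was higher in plasma than in blood cells by 3.22, against 1.72 to 1.76 in the other cows, with the most miR-92b and the least miR-32 of the 4 plasma libraries.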

How the results depend on the processing

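miR-25, miR-92a and miR-92b kept direction and call under every alternative tried, at -2.73 to -0.97, -2.75 to -0.93 and 1.71 to 3.52. miR-32 and miR-363 turned to 1.40 and 1.30 with library totals and to 1.40 and 1.25 with limma on log2(RPMM + 1), which has the same scaling, and were then called higher in plasma. They were not called under any other alternative that tested them (adjusted p 0.0602 to 0.810), and miR-363 did not reach the filter of 100 RPMM. Without the replicate block, no member's call changed. An exact test without pairs gave the 8 ratios between sets an adjusted p of 0.0357. It ignores that each cow gave both libraries. Before adjustment its p was 0.0286, the smallest that 4 against 4 libraries allow, which follows from the lack of overlap. The limit of the paired test therefore stands. The log2 differences were the same as with pairs, at -4.45, -2.34 and -2.22 for miR-92a over miR-92b, miR-32 and miR-363. For miR-25 over the same they were -4.49, -2.37 and -2.25, and for miR-92b over miR-32 and miR-363 they were 2.12 and 2.23. When each cow was left out in turn, the ratio of miR-92a to miR-25 ranged from -0.17 to 0.16 and that of miR-32 to miR-363 from -0.10 to 0.29, so neither has a settled sign. Over all tested miRNAs, the 95 calls toward plasma and 83 toward blood cells became 178 and 153 without a filter (more names tested), and with library totals 140 and 52 (limma, 52 toward blood cells). The 8 tested partners were called higher in blood cells under every alternative.

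Depth limits miR-363, miR-106a, miR-20b and miR-18b most. Amounts per volume of blood were not analysed here, so the scalings cannot be ranked. All p-values rest on 4 cows, and those of edgeR also draw on the spread of the other tested miRNAs.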
